A study of Homo sapiens with 8 samples.

Results

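SIX2, SIX3, SIX4, SIX5 and SIX6 are 5 human genes of a homeobox transcription factor family, taken here from 20037 protein-coding genes in the RefSeq annotation. Each was examined over its hg38 gene span and over that span with 100 kb added on each side, in chromatin maps of the histone variant macroH2A1. The genes were picked with their domain coverage and their entries in a table of differential regions already known, so all of those values are descriptions and were not tested.

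The cells were HepG2, a human hepatoblastoma line used as a model of liver cells. They were transfected with an siRNA against ANP32B (siANP32B), a histone chaperone, or with a non-targeting siRNA (siControl), and taken after 3 days for CUT&RUN, in which an antibody guides a nuclease to its target and the released DNA is sequenced. The 8 libraries comprised 2 for each pairing of siRNA and antibody, and the 4 made with anti-macroH2A1 are described here. The 4 made with a non-targeting IgG were not analysed here. Replicates are numbered without saying whether they were separate cultures, a single siRNA was used against ANP32B, and the files used here do not measure how far ANP32B was depleted.

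Their proteins are transcription factors with a family-specific SIX-type domain, which binds cofactors, beside a homeodomain, which binds DNA. They act with EYA coactivators and DACH corepressors in the development of kidney, eye, forebrain and muscle. SIX2 keeps nephron progenitors from differentiating, SIX3 patterns the forebrain and eye, SIX6 acts in the retina and pituitary, SIX4 acts in skeletal muscle, and SIX5 lies beside the myotonic dystrophy gene DMPK. The variant macroH2A1 replaces H2A in some nucleosomes, carries a bulky macro domain, and is known for broad stretches of silent or weakly transcribed chromatin.

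Promoter sequences, from 250 bases before to 50 after the start of the gene, were at hand for SIX2, SIX4 and SIX6 (RefSeq, GRCh38.p14). They are shown because the domain maps divide them: the SIX2 promoter lay in a domain in 3 of the 4 libraries, and the SIX4 and SIX6 promoters in none. SIX2 (chr2:45009403-45009702) and SIX4 (chr14:60724302-60724601) are on the minus strand and SIX6 (chr14:60508896-60509195) on the plus strand. Capitals mark runs of at least 10 bases that 2 of these promoters share in the orientation of their genes.
SIX2: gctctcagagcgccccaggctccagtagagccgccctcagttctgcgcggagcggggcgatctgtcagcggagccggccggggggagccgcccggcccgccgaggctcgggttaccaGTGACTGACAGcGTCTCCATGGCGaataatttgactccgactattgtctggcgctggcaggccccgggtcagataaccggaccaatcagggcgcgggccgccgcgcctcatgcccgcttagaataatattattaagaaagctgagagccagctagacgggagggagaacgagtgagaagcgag
SIX6: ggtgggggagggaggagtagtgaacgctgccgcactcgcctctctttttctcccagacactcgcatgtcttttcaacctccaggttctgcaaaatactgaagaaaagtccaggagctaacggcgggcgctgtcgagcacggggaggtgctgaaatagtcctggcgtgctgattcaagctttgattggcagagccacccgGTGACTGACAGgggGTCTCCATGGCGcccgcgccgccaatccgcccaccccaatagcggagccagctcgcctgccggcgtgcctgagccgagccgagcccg
SIX4: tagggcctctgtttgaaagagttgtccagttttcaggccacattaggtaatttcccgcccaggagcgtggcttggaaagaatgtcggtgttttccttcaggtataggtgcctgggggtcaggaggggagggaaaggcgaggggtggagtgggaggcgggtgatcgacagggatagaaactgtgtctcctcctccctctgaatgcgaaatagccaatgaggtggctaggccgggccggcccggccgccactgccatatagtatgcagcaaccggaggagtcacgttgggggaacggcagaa

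SIX2 and SIX6, on different chromosomes, share 2 runs in the same order, GTGACTGACAG of 11 bases and GTCTCCATGGCG of 12 bases, with 1 base between them in SIX2 and 3 bases in SIX6. Counted from the first transcribed base, the first run begins at -133 in SIX2 and at -51 in SIX6. On either strand, the 11-base run occurs in 23 and the 12-base run in 16 of the 35116 promoters of the table, and SIX2 and SIX6 are the promoters that hold both. The first run contains TGACAG, the core letters preferred by TALE homeodomain proteins such as MEIS factors, which 15.8% of all promoters in the table contain on either strand. The longest run that SIX4 shares with either of the others has 9 bases. CCAAT, the CCAAT box, is in all 3 promoters and in 34.6% of all promoters. TCAGGTT and TGATAC, core letters of known SIX-family binding sites, are in 3.37% and 4.40% of all promoters on either strand and are not in these 3 windows. SIX2 has 29 CpG dinucleotides, SIX6 has 23 and SIX4 has 14, against a median of 14 over all promoters (interquartile range 4 to 28). The 2 promoters with these runs thus differed in domain coverage, SIX2 lying in a domain in 3 libraries and SIX6 in none. In siANP32B replicate 1 and siControl replicate 2 the domain over the SIX2 promoter was a low-scored one. By the score of the authors' domain caller it exceeded 1.63% and 0.591% of the domains in those lists.

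The 5 genes fell into 3 settings. SIX2 and SIX3 lay under domains in both siANP32B libraries, SIX4 and SIX5 lay just outside the edge of a domain in every library, and SIX6 lay far from any. A domain here is a stretch that the authors' caller found enriched in one library, with ends on a 1 kb grid. It records where enrichment was called and not how much macroH2A1 was there, and a change in some cells cannot be told apart from a change in all.

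With all domains kept, SIX3 showed the largest difference of the 5 genes over the gene span and with 100 kb flanks; with 200 kb flanks the gap was 47.0 points at SIX3 and 47.4 points at SIX2. Its 4.37 kb span was 100% covered in both siANP32B libraries and 0% covered in both siControl libraries. Of all protein-coding genes, 2.2% had at least 50% of the span in domains of both siANP32B and neither siControl library, and 0.594% the reverse. With 100 kb flanks, SIX3 was 100% and 99.9% covered in siANP32B and 0% and 35.3% in siControl libraries, or 99.9% ± 0.103 against 17.6% ± 24.9 (SD, n = 2 each). The groups did not overlap, and the gap of 82.3 points exceeded the pooled SD of 17.6 points. The median gap between siANP32B and siControl over all protein-coding genes was 0.944 points, and 99.9% of genes had a smaller one than SIX3.

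SIX2, 59.1 kb from SIX3, was less clear-cut. Its 4.27 kb span was 100% covered in both siANP32B libraries, and 0% and 100% covered in siControl replicates 1 and 2. That pattern, a domain in both siANP32B libraries and exactly 1 siControl library, was found for 3.49% of protein-coding genes. With flanks, SIX2 was 97.1% and 100% covered in siANP32B and 21.8% and 55.5% in siControl libraries, or 98.5% ± 2.08 against 38.7% ± 23.9 (SD, n = 2 each). For the flanked window the groups did not overlap with all domains kept, and 99.8% of protein-coding genes had a smaller gap. For the gene itself siControl replicate 2 matched the siANP32B libraries. The flanked window of SIX2 begins at 44905182 and that of SIX3 ends at 45046071, so they share sequence and are not separate observations.

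The borders on chromosome 2 show where the difference lay. SIX3 and SIX2 stand in a stretch of 616 kb without another protein-coding gene, between CAMKMT, which encodes a calmodulin methyltransferase, and SRBD1. In siANP32B replicate 1 the lowest domain ran from 44834001 to 45076000, followed by domains from 45082001 to 45127000 and from 45159001 to 45399000. In siANP32B replicate 2 a single domain of 546 kb ran from 44842001 to 45388000, longer than 99.6% of the domains in its list. In siControl replicate 1 a single domain of 316 kb ran from 45065001 to 45381000 and began 55.5 kb beyond SIX2. In siControl replicate 2 the lowest domain ran from 44974001 to 45059000 and took in SIX2 but not SIX3, with further domains from 45081001 to 45126000 and from 45162001 to 45385000. The upper end was thus nearly fixed, close to SRBD1, and the lower end varied.

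**Figure D1:**
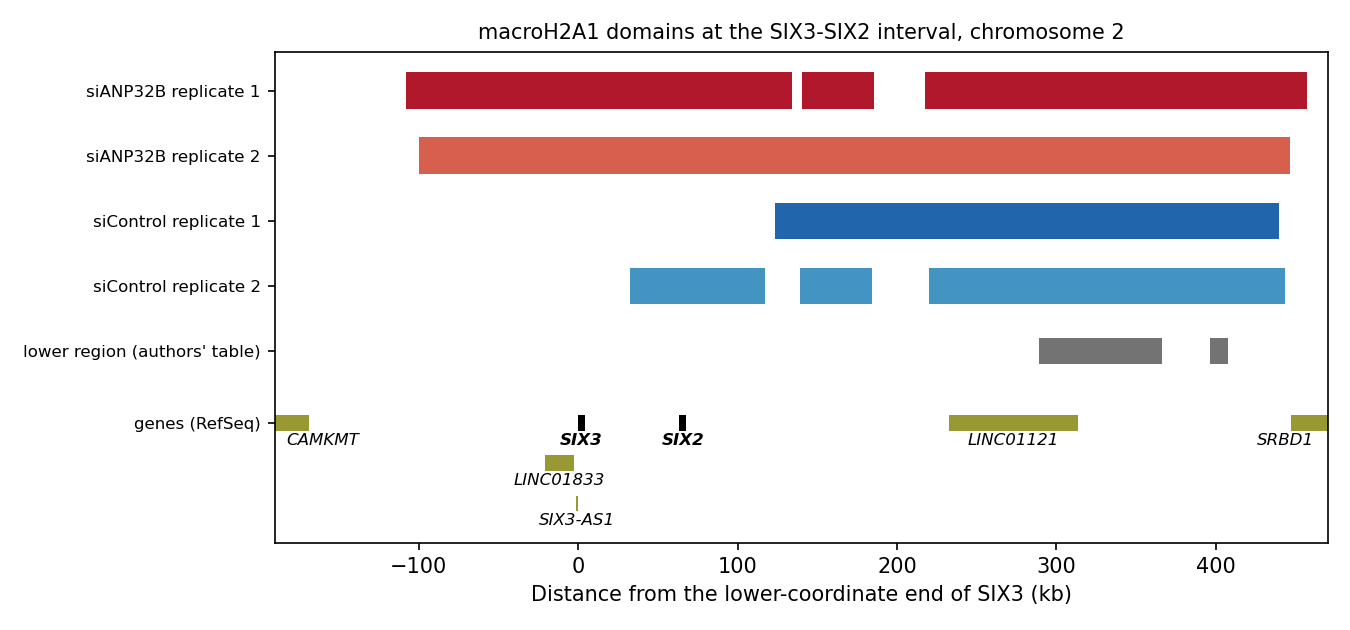
Domains (bars) in each anti-macroH2A1 library across the interval between CAMKMT and SRBD1, with regions called lower in the authors' deposited table (grey) and RefSeq genes; the horizontal axis is distance in kb from the lower-coordinate end of SIX3. Both siANP32B rows begin left of SIX3, by 107.7 and 99.7 kb, while both siControl rows begin right of it.

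The position of the lower border, siANP32B minus siControl, differed by -181.5 kb on average, against a pooled SD of 45.7 kb. Of the interval, 516.7 and 546 kb were in domains in siANP32B libraries, and 316 and 353 kb in siControl libraries. Sequence in both siANP32B and neither siControl library came to 141 kb, or 22.9% of the interval, against 1.49% of the annotated genome. Of it, 132 kb formed a single stretch from 44842001 to 44974000 that holds SIX3, its divergent noncoding gene SIX3-AS1 and the noncoding gene LINC01833, each 100% covered in both siANP32B libraries and 0% in both siControl libraries. No base of the interval was in both siControl and neither siANP32B library. CAMKMT, on the far side of the lower border, was 0% covered in all 4 libraries.

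Of the 4 domains that set the lower border, 2 had scores near the bottom of their lists. Ranked by the authors' caller score, the siANP32B replicate 1 domain over SIX3 and SIX2 exceeded 1.63% of the domains in its list, and the siControl replicate 2 domain over SIX2 exceeded 0.591% of its own. The 546 kb domain of siANP32B replicate 2 exceeded 32.3% of its list, and the domain of siControl replicate 1 exceeded 75.8% of its own. With the lowest 5% of scores left out of each list, an alternative added after seeing the data, the flanked SIX3 window was 0% and 99.9% covered in siANP32B replicates 1 and 2 and 0% in both siControl libraries, so that the difference then rested on siANP32B replicate 2. The flanked SIX2 window was then 13.4% and 100% covered in siANP32B replicates 1 and 2 and 21.8% and 13.9% in siControl replicates 1 and 2, so that the groups overlapped. Keeping equal numbers of best-scored domains per list gave the same values. That number, 7404, was the whole list of siANP32B replicate 2, so this filter could remove none of its domains. Keeping domains above one score common to all lists left SIX3 at 0% in all 4 libraries. No domain of the chromosome 2 interval was then left in siANP32B libraries, while domains remained in both siControl libraries.

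The authors also compared the groups region by region, and their table does not state which group is on top of its folds. Positive folds were read as higher in siANP32B because regions with positive folds that passed an FDR of 0.05 in the authors' deposited table were at least 50% inside domains for 99.4% and 99.4% of them in siANP32B and 88.3% and 80.7% in siControl libraries. Over all of the authors' deposited table, 58.4% of regions were lower and 3.82% higher at that FDR, with a median log2 fold of -0.54 over all regions. The scaling between libraries behind these folds is unknown.

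All 4 libraries had domains from 45082001 to 45126000, a stretch of 44 kb with no region in the authors' deposited table, and from 45162001 to 45381000, a stretch of 219 kb that holds the noncoding gene LINC01121 and 2 regions called lower. In the authors' deposited table a 77 kb region in it, from 45231001 to 45308000, had a log2 fold of -1.07 (FDR 9.40e-08), with all 54 of its windows down. An 11 kb region of the authors' deposited table, from 45338001 to 45349000, had a log2 fold of -0.84 (FDR 4.99e-05). Of the 4474 regions in the authors' deposited table, 3.51% had a lower fold than the first. Both regions were 100% covered in all 4 libraries. Neither is near the homeobox genes: the closer one starts 221.5 kb past SIX2, and no region of the authors' deposited table overlapped the SIX2 or SIX3 window. The interval thus held a longer called stretch and lower folds at its far end, with no fold given over SIX3 or SIX2 themselves.

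SIX4 and SIX6 are 196.7 kb apart on chromosome 14, and 1 domain stood between them in every library. It ran from 60642001 to 60709000 and from 60644001 to 60709000 in the siANP32B libraries, and from 60649001 to 60701000 and from 60654001 to 60705000 in the siControl libraries. Its length was 67 and 65 kb in siANP32B and 52 and 51 kb in siControl libraries. The groups did not overlap, and the gap of 14.5 kb was larger than the pooled SD of 1.12 kb. Domains were longer in the siANP32B lists as a whole, with medians of 47 and 48 kb against 38 and 39 kb in siControl lists. Within its own list this domain was longer than 66.1% and 64.4% of domains in siANP32B and 63.5% and 62.9% in siControl libraries. Its rank by length was thus similar in all 4 libraries. Both ends lay further out in both siANP32B libraries, which added 5 kb at the lower end and 4 kb at the upper end that neither siControl library had.

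SIX4 was itself outside this domain. Its 14.8 kb span from 60709539 to 60724351 was 0% covered in all 4 libraries, as was its promoter. The gap from the domain to the gene was 0.538 kb in both siANP32B libraries, and 8.54 and 4.54 kb in the siControl libraries. As SIX4 is on the minus strand, the side facing the domain is where the gene ends. With flanks, SIX4 was 31.2% and 30.3% covered in siANP32B and 24.2% and 23.7% in siControl libraries, a gap of 6.75 points against a pooled SD of 0.520 points, where the upper quartile of all protein-coding genes was 7.70 points. MNAT1, the next gene, which encodes an assembly factor of the CDK-activating kinase, was 0% covered throughout.

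**Figure D2:**
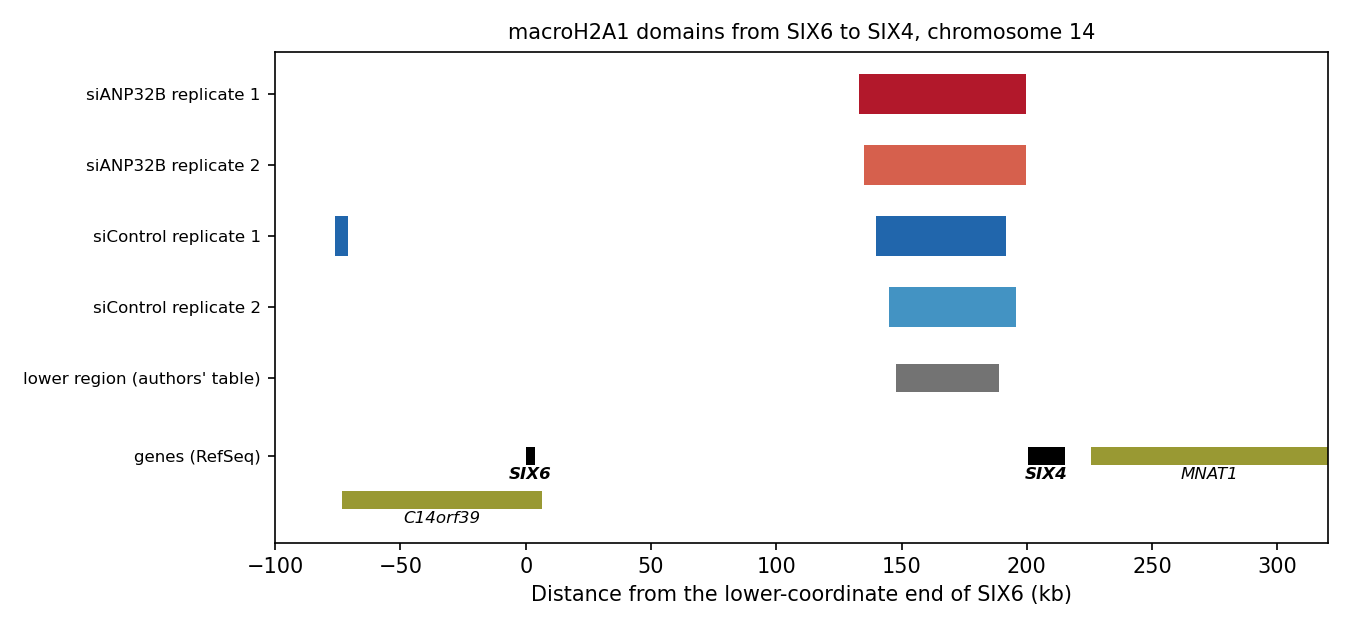
Domains (bars) in each anti-macroH2A1 library from 100 kb below SIX6 to 100 kb above SIX4, with the region called lower in the authors' deposited table (grey) and RefSeq genes named in the text; the horizontal axis is distance in kb from the lower-coordinate end of SIX6. The domain beside SIX4 is 67 and 65 kb long in siANP32B and 52 and 51 kb long in siControl libraries and stops short of SIX4 in every library.

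Although the domain was longer, its fold was below 0 in the authors' deposited table. In the authors' deposited table a 41 kb region from 60657001 to 60698000, inside the 47 kb that all 4 libraries shared, had a log2 fold of -0.71 (FDR 0.0119), with 15 of its 25 windows down and 0 up. It lies 11.5 kb from SIX4, and 28.1% of all regions in the authors' deposited table had a lower fold. By the caller's score the domain exceeded 84.9% and 82.5% of the lists in siANP32B and 92.5% and 88.3% in siControl libraries, so it was a well-scored call in each.

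SIX6 was without macroH2A1 domains in both groups. Its 3.71 kb span was 0% covered in all 4 libraries, and the flanked window was 0% covered in both siANP32B libraries and 2.45% and 0% in the siControl libraries. The 2.45% was a single 5 kb domain in siControl replicate 1, from 60433001 to 60438000, longer than 0.615% of its list and with a score above 99.1% of it. The nearest domain was 129.2 and 131.2 kb away in siANP32B, and 71.1 and 141.2 kb away in siControl libraries. C14orf39, which encodes a synaptonemal complex protein and overlaps SIX6, was 0% covered in both siANP32B libraries and 2.57% and 0% in siControl libraries. Genes with under 50% of the span in a domain of any library made up 69.1% of protein-coding genes, so SIX4, SIX5 and SIX6 share the commonest state.

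SIX5 sits in a dense cluster on chromosome 19, 0.243 kb from MEIOSIN, a meiotic initiator gene, and 0.464 kb from DMPK. Its 4.47 kb span from 45764785 to 45769252 was 0% covered in all 4 libraries, yet a domain over MEIOSIN ended close by in each. The gap from that domain to SIX5 was 1.78 and 2.78 kb in siANP32B, and 0.784 and 1.78 kb in siControl libraries. MEIOSIN was 95.0% and 90.0% covered in siANP32B and 98.3% and 95.0% in siControl libraries. Further out on the same side, GIPR, the gene of the receptor for an incretin hormone, was 88.9% and 76.0% covered in siANP32B and 88.9% and 63.1% in siControl libraries. The border between MEIOSIN and SIX5 thus differed by at most a few kb between libraries, with no separation of the groups.

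On the other side of SIX5 the libraries differed. DMWD, next after DMPK, was 100% and 69.1% covered in siANP32B and 8.54% and 0% in siControl libraries, again the pattern found for 2.2% of protein-coding genes. RSPH6A, which encodes a radial spoke protein of cilia and flagella, was 98.4% and 78.0% covered in siANP32B and 88.2% and 0% in siControl libraries, so here siControl replicate 1 overlapped the siANP32B libraries. DMPK was 27.3% and 0% covered in siANP32B and 0% in both siControl libraries. SYMPK, which encodes a scaffold of messenger RNA 3′ end processing, and FOXA3, a liver transcription factor gene, were 0% covered in all 4.

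**Figure D3:**
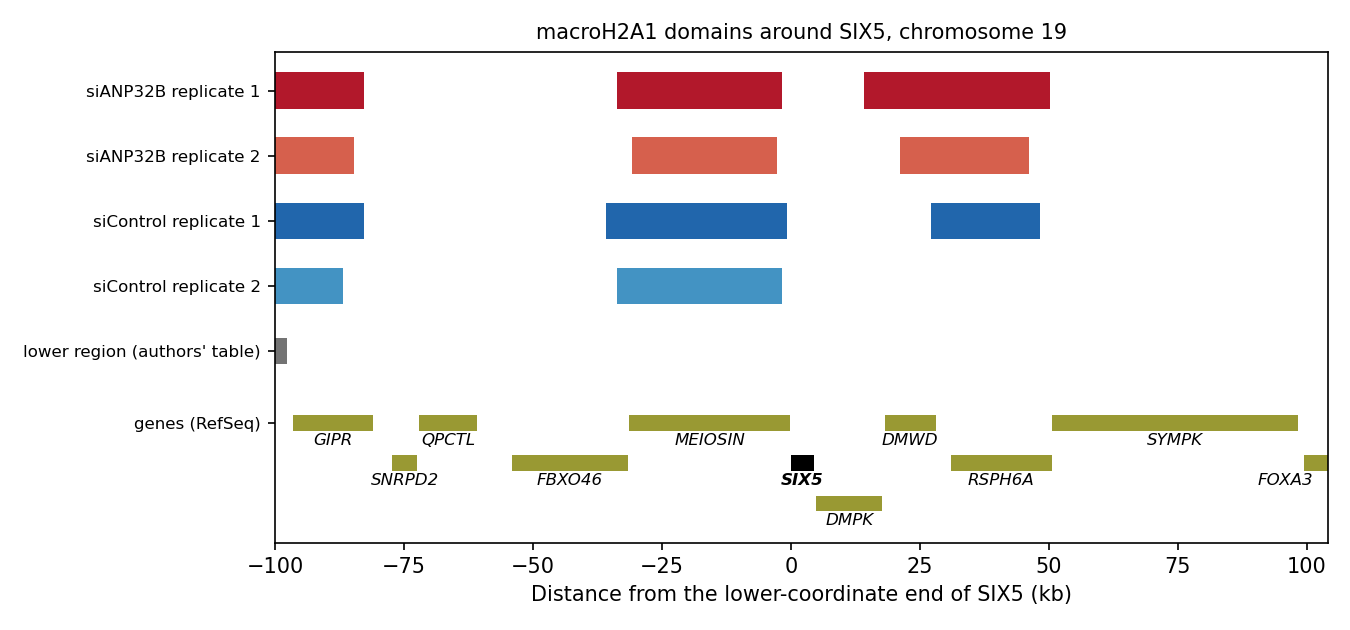
Domains (bars) in each anti-macroH2A1 library within 100 kb of SIX5, with the edge of a region called lower in the authors' deposited table (grey) and RefSeq genes; the horizontal axis is distance in kb from the lower-coordinate end of SIX5. SIX5 lies in a gap in all 4 libraries, 0.784 to 2.78 kb from the domain over MEIOSIN.

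With flanks, SIX5 was 41.7% and 33.4% covered in siANP32B and 35.8% and 22.1% in siControl libraries, or 37.5% ± 5.88 against 29.0% ± 9.68 (SD, n = 2 each). The groups overlapped, and the gap of 8.56 points was about the size of the pooled SD of 8.01 points. The gap was 1.71 points without siControl replicate 2, 15.4 points without siControl replicate 1, 4.40 points without siANP32B replicate 1 and 12.7 points without siANP32B replicate 2. In the authors' deposited table a 23 kb region from 45644001 to 45667000 reached 2.22 kb into this window, 97.8 kb from SIX5 and overlapping the end of EML2, which encodes a microtubule-associated protein, with a log2 fold of -0.50 (FDR 0.0456) and 7 of 14 windows down. That fold is above the median of the authors' deposited table, since 55.0% of regions had a lower one.

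In all, 2 regions of the authors' deposited table overlapped the 5 flanked windows, 1 at SIX4 and 1 at SIX5, and both were lower. By the authors' deposited table, any tested region lay within 100 kb of 41.7% of protein-coding genes, a lower one within 100 kb of 28.1% and a higher one within 100 kb of 1.94%. At an FDR of 0.01 in the authors' deposited table neither of the 2 passed. Across the merged windows of the 5 genes, coverage was 46.6% and 45.1% in siANP32B and 19.7% and 23.6% in siControl libraries, a gap of 24.2 points against a pooled SD of 2.11 points, and most of it came from SIX2 and SIX3. Over the whole genome, domains covered 563.8 and 558.6 Mb in siANP32B and 519.3 and 467.4 Mb in siControl libraries (two-sided exact permutation p = 0.333, the smallest that 2 against 2 can give).

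**Figure D4:**
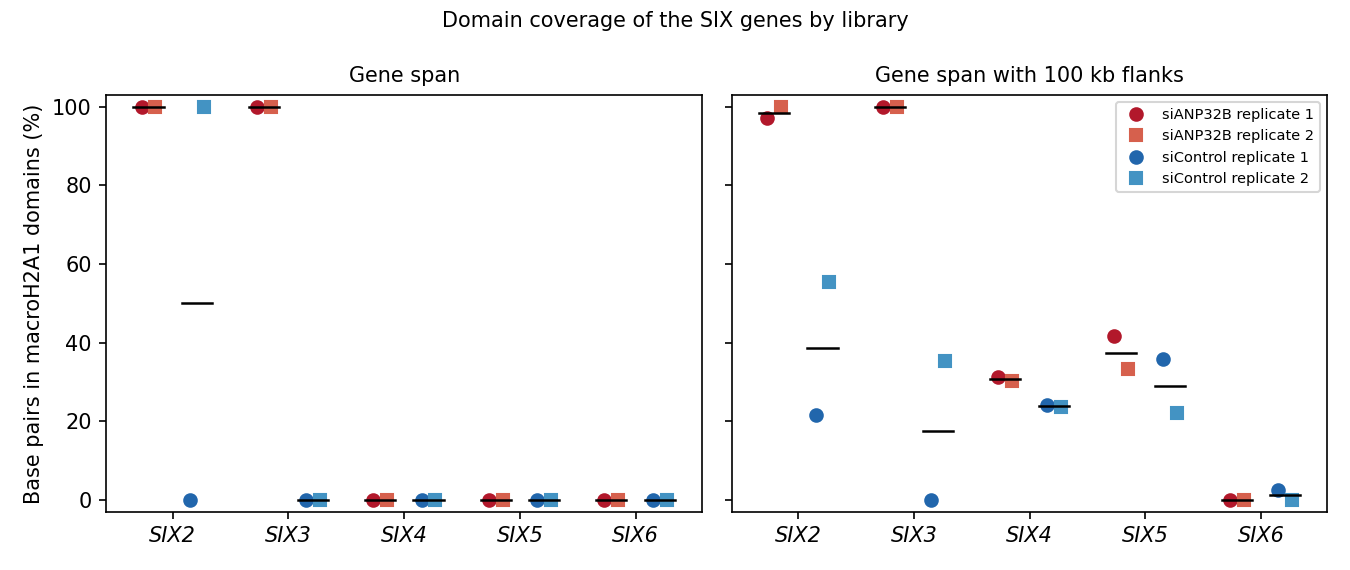
Percent of base pairs in macroH2A1 domains for each of the 5 genes, over the gene span (left) and with 100 kb flanks (right); points are libraries and black lines are group means (n = 2 each). With flanks and all domains kept, the points of the groups lie apart at SIX2, SIX3 and SIX4, overlap at SIX5 and are near 0 at SIX6. How many of all protein-coding genes show points that lie apart in this way was not counted. The separation is thus not read as a trait of these genes.

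Likeness of flanked coverage was taken as the largest absolute difference over the 4 libraries, with all domains kept. The low-scored domains at SIX2 and SIX3 were thus included, and likeness without them was not computed. The most similar genes on other chromosomes were far less close to SIX2 and SIX3 than to the others. For SIX2 they were RIPOR2 (8.84 points), ADTRP (16.5 points) and SKAP1 (17.1 points), and for SIX3 they were HS3ST2 (13.7 points), ADTRP (15.1 points) and MBOAT1 (24.7 points). HS3ST2, which encodes a heparan sulfate sulfotransferase, was 100% covered in both siANP32B libraries and 0% and 48.9% in the siControl libraries. For SIX4 the closest were RASGEF1C, CDK19 and MAN1A1 (1.41 to 1.70 points), with 141 genes within 5 points. For SIX5 they were AVPI1, TIMP3 and CCZ1B (0.654 to 2.71 points), with 48 genes within 5 points. MGST1, GUCY1B1 and PPP3CB were closest to SIX6, where 3801 genes lay within 5 points.

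EYA and DACH genes, whose products work with these factors, and genes of kidney progenitors, eye and forebrain, and muscle were read against all protein-coding genes. Of 28 genes in 4 lists, 6 had at least 50% of the span in domains of both siANP32B libraries and 4 in both siControl libraries, or 21.4% and 14.3%, against 17.2% and 13.7% of all protein-coding genes. None of the 28 was in domains of both siANP32B and neither siControl library, against 2.2% of all protein-coding genes, which is no result about so short a list, and 17 had under 50% of the span in domains of every library. The 4 genes covered in every library were EYA2, a SIX-family coactivator, PAX2, a kidney factor that acts with SIX2, LHX2, an eye field factor, and PAX7, a muscle stem cell factor. EYA2 was 100% and 100% covered in siANP32B and 100% and 98.0% in siControl libraries, and PAX2 was 100% and 91.5% covered in siANP32B and 85.2% and 77.8% in siControl libraries.

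Some genes of these lists varied between replicates of a group as much as between groups. OSR1, an early kidney factor, was 77.3% and 84.5% covered in siANP32B and 0% and 100% in siControl libraries. MYOD1, the muscle determination factor, was 100% covered in both siANP32B libraries and 100% and 0% in siControl libraries. RAX, an eye field factor, and MYOG, a muscle differentiation factor, were each 100% covered in siANP32B replicate 1 and 0% in the other 3 libraries. The corepressor genes DACH1 and DACH2 and the kidney genes CITED1, RET and LHX1 were 0% covered in all 4 libraries. So were the eye and forebrain genes OTX2 and MITF and the muscle genes MYF5 and MYF6.

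**Figure D5:**
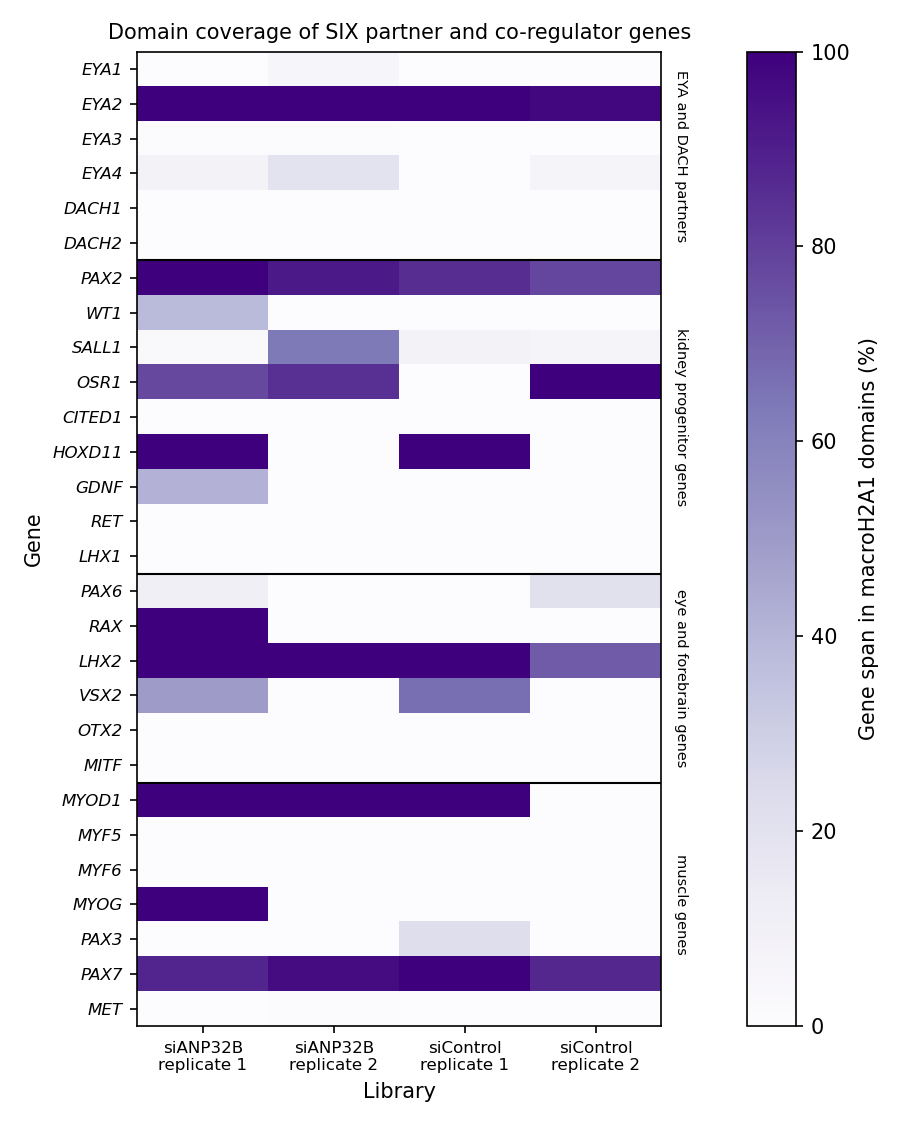
Percent of each gene span in macroH2A1 domains for the 28 EYA, DACH, kidney, eye and forebrain, and muscle genes (rows, grouped by list) in each library (columns). EYA2, PAX2, LHX2 and PAX7 are dark in all 4 columns, and 17 genes are under 50% in each.

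Of the 28 genes, 5 overlapped a region of the authors' deposited table, and 3 of those regions were lower and none higher, where 9.25% of all protein-coding genes overlapped any region, 5.61% a lower and 0.539% a higher one. In the authors' deposited table the log2 fold was -0.90 at DACH2 (FDR 0.00441), -0.58 at PAX7 (FDR 0.0295) and -0.52 at LHX2 (FDR 0.0269). At PAX2 it was -0.41 (FDR 0.0677) and at EYA2 -0.08 (FDR 0.660) in the authors' deposited table. PAX7 and LHX2 stayed in domains in all 4 libraries, while DACH2 had no domain over its span in any.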

How the data were processed

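macroH2A1 was profiled by CUT&RUN. The submitters' processing notes name build hg38, Trim Galore, Bowtie2, SAMtools and deepTools, with SICER and edgeR also listed, and no version or setting. The authors deposited 1 domain list per anti-macroH2A1 library with a score per domain, which served only to rank or filter domains. Their deposited table of 4474 regions holds, per the file headers, numbers of windows tested, up and down, a p-value, an FDR and the fold of a representative window, read as log2. It has no values per library, so no count test was made and no error of a fold is given. Depth is unknown.

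Coverage was computed in base pairs (Python 3.11.15, pandas 2.3.3; tested on simulated data). Gene spans came from RefSeq GRCh38.p14, the same assembly as hg38. A gene counted as covered at 50% of its span. Promoters of SIX3 and SIX5 and protein sequences were not used here, and not every gene of the windows and lists is reported here. Named genes were the 5 members, coding genes within 100 kb and the coding gene at or nearest to each region. The 4 lists of partner and developmental genes and the 3 coding genes most alike in coverage were also named. Noncoding genes and those bounding the chromosome 2 interval were chosen after their values were seen. The members and lists were chosen with earlier results of these data known. Alternatives were other flanks, score filters, region thresholds and each library left out.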

Additional observations from a re-analysis of the deposited data

How the results depend on the processing

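Over the merged windows of the 5 genes, siANP32B minus siControl coverage was 24.2 points. It was 30.1 points with 50 kb flanks, 14.3 with 200 kb flanks, 20.6 over gene spans alone, and 15.8 both with equal numbers of best-scored domains and with the lowest 5% of scores left out. It turned to -2.62 points with one score common to all lists, as did the genome-wide difference (-101 Mb against 67.8 Mb, and 122.9 Mb with equal numbers of best-scored domains) and, at single genes, SIX2 (-10.9 points) and SIX5 (-6.36 points). With equal numbers, each list kept 7404 domains, which was the whole siANP32B replicate 2 list. The others were cut from 7530 in siANP32B replicate 1 and from 8623 and 8116 in siControl libraries. Scores differed between lists, with a median of 70.1 and 67.5 in siANP32B and 88.9 and 97.7 in siControl libraries. Whether this reflects the scale of the score or the enrichment itself was not tested. SIX6 turned to 2.97 points with 200 kb flanks, which reach the domain beside SIX4. With 1 library left out the merged value was 22.3 to 26.2 points, the chromosome 2 border shift -227 to -136 kb, the chromosome 14 length difference 13.5 to 15.5 kb and the genome-wide difference 41.9 to 93.8 Mb; the lower end of the last came without siControl replicate 2.

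The border shift on chromosome 2 (-181.5 kb) was -111 kb with equal numbers of best-scored domains or without the lowest 5% of scores, where the borders lay at 45082 and 44842 kb in siANP32B and 45065 and 45081 kb in siControl libraries (pooled SD 120.3 kb), so that the groups overlapped and the shift rested on siANP32B replicate 2. With a common score of 81.07 it could not be computed, because no domain of the interval was left in either siANP32B library. The domain from 45065001 to 45381000 in siControl replicate 1 and that from 45162001 to 45385000 in siControl replicate 2 remained. The chromosome 14 difference was 14.5 kb under each of these filters. The 2 lower regions in the windows became 0 at an FDR of 0.01, and 1 with 50 kb flanks or with at least 50% of the region inside the window. With folds centred on the median over all regions, 1 was lower and 1, the region at SIX5, counted as higher. The cause of that last change was the centring itself. Replicate numbers were also taken as a block (siANP32B minus siControl within each number, 2 pairs, values only). The means, 24.2 points, -181.5 kb, 14.5 kb and 67.8 Mb, are the same by arithmetic and are no check. The SD of the 2 differences was 3.85 points, 70.0 kb, 0.707 kb and 33.0 Mb. No paired test was made, because the labels do not say what a number pairs. For the region and list counts no paired analysis was possible because they come from no test on samples.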
